A study of Mus musculus with 12 samples.

Results

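The 38 genes described here encode the enzymes that take glucose through glycolysis to pyruvate and lactate, and those that carry pyruvate through the pyruvate dehydrogenase complex into the tricarboxylic acid (TCA) cycle. They were chosen by symbol and make up 38 of the 55401 genes in the count table: 22 on the glycolysis side and 16 on the TCA side, which holds the pyruvate dehydrogenase complex and the cycle. All 38 symbols were found. Aldoa has 2 rows in the table, and the row used holds all of its counts, the other being at 0 in every library.

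RNA was measured in oocytes cut by laser from sections of ovaries of 7 to 8 day old C57Bl/6j x CBA/J F1 mice. The ovaries had been cultured for 5 days with vehicle (DMSO; the labels call these samples sham) or with dorsomorphin (DM), an inhibitor of the AMP-activated kinase AMPK. There were 4 groups of 3 libraries: primordial follicles with control or DM, and primary follicles with control or DM. The methods give 200 oocytes per group, pooled and amplified before sequencing, and the labels describe the samples as in vivo, which differs from the cultured ovaries of the methods. In such samples fewer cells of a type and less RNA per cell cannot be told apart.

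In the ovarian follicle the granulosa cells carry out much of the glycolysis and hand pyruvate to the oocyte, which oxidises it in its mitochondria. Glycolysis splits glucose into pyruvate, lactate dehydrogenase interconverts pyruvate and lactate, and the pyruvate dehydrogenase complex makes the acetyl group that the TCA cycle oxidises. The PFKFB enzymes set the level of fructose 2,6-bisphosphate, which drives the phosphofructokinase step.

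The libraries held from 14034586 to 42639326 counts, and the shallowest had 0.0713 CPM (counts scaled to a common library total) for 1 count. The number of genes with more than 3 counts ran from 4206 to 10687. The primary control replicate 3 library was lowest, with 4206 such genes, 16 of the 38 members above 3 counts and 51.2% of its counts in its 100 most abundant genes. The primary DM libraries were low too, with 5314, 4670 and 4850 such genes, and 35.6%, 48.5% and 43.7% of counts in their 100 most abundant. Primary control replicates 1 and 2 had 7839 and 7354 such genes, and 26.0% and 24.9%. The part of this in the primary follicle results below was not tested. The median summed level of the oocyte markers (18 genes) was 525 CPM in primordial control (range 43.6 to 1281) and 65.8 CPM with DM (17.4 to 1075), and 616 CPM in primary control (13.9 to 1465) and 95.8 CPM with DM (56.6 to 1118). That of the granulosa markers (12 genes) was 2418 CPM in primordial control (1495 to 3082) and 397 CPM with DM (256 to 2596), and 5059 CPM in primary control (1770 to 8879) and 1049 CPM with DM (880 to 14298). Both lists thus had lower medians with DM in both stages, with ranges that overlapped. Stroma and muscle markers (10 genes) summed to between 2164 and 12856 CPM per library. The lowest of these sums was above the highest oocyte marker sum of any library, 1465 CPM. Granulosa medians were above oocyte medians in every group. The levels below are those of whole libraries, and the share that came from oocytes was not measured. Sohlh2 was at or under 3 counts in every library, and so were Fshr and Cyp19a1 of the granulosa list. Of 8 blood and vessel markers, the hemoglobin genes were at or under 3 counts in every library. These lists varied between libraries, and their part in the results below was not tested. The replicates had a biological coefficient of variation from 1.76 to 1.90 over the comparisons, so most of the differences below lie within the spread between libraries.

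Promoters are shown for the 4 members with an unadjusted p under 0.05 between DM and control in primary follicles, because these are the genes with the largest contrast there by that measure. The 250 bases before each RefSeq start site in GRCm38.p6 are written in lower case, with the sequence ACGTG (either strand), the core of the site bound by hypoxia-inducible factors, in capitals. Pfkfb3 has 2 start sites on chromosome 2, minus strand, at chr2:11553930-11554179 and chr2:11502091-11502340. Mdh1 is on the minus strand at chr11:21571935-21572184, Dld on the minus strand at chr12:31351472-31351721 and Pgam1 on the plus strand at chr19:41911621-41911870.
Pfkfb3, first start site: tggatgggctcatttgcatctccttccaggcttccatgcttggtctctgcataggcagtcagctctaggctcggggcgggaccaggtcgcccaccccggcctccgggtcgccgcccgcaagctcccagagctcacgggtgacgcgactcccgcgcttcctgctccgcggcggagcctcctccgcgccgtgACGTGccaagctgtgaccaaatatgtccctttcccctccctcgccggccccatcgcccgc
Pfkfb3, second start site: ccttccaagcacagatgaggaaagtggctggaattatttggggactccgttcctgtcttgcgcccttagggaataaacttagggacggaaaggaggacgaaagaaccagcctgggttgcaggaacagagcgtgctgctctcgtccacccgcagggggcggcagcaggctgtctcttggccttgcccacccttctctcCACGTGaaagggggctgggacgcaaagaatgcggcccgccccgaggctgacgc
Mdh1: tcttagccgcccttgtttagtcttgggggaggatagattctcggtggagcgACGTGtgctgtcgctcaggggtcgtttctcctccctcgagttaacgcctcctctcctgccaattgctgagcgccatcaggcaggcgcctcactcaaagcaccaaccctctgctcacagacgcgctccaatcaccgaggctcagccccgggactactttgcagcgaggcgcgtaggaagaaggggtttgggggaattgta
Dld: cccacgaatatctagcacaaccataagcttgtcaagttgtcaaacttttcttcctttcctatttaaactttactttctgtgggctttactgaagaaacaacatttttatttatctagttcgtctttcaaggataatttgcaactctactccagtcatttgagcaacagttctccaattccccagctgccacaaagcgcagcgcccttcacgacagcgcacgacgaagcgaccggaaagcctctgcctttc
Pgam1: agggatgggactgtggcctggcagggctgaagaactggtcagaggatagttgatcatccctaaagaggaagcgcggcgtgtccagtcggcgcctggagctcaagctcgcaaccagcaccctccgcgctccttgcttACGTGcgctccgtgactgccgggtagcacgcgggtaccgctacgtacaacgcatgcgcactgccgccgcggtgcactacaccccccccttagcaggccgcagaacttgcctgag

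The motif was present in 3 of these 4 genes, being absent from the Dld window. Over all 36 members with a promoter in the table, ACGTG was found for 10 of 21 glycolysis genes and 4 of 15 TCA side genes, against 18.5% of the 27025 genes with a promoter. CACGTG, which contains it, was found for 4 glycolysis genes and 1 TCA side gene, against 6.86% of all genes. The genes have unequal numbers of start sites, and a match is a description of the letters only.

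The members covered a wide range of levels. Per kilobase of exon, the median over the 12 libraries was highest for Pkm, the last enzyme of glycolysis, at 108 CPM per kb. It was followed by Gapdh at 78.4, Aldoa at 71.7, Ogdh at 63.7, Mdh1 at 62.1 and Idh3b at 53.3 CPM per kb, and the ranges of these neighbours over the libraries overlapped. Of the glycolysis genes 6 passed 3 counts in all 12 libraries, 10 in 6 to 11, 5 in 1 to 5 and 1 in none, and the TCA side gave 5, 9, 2 and 0. Exons of 14 members overlap another gene in the annotation, among them Pkm, Gapdh, Aldoa, Idh3b and Mdh1, and the counting does not state the use of strand, so reads of the partner genes may be included. Ldha, Pgk1, Pgam1, Gapdh and Aldoa also have processed pseudogenes in the table, and reads may be split with them.

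**Figure D1:**
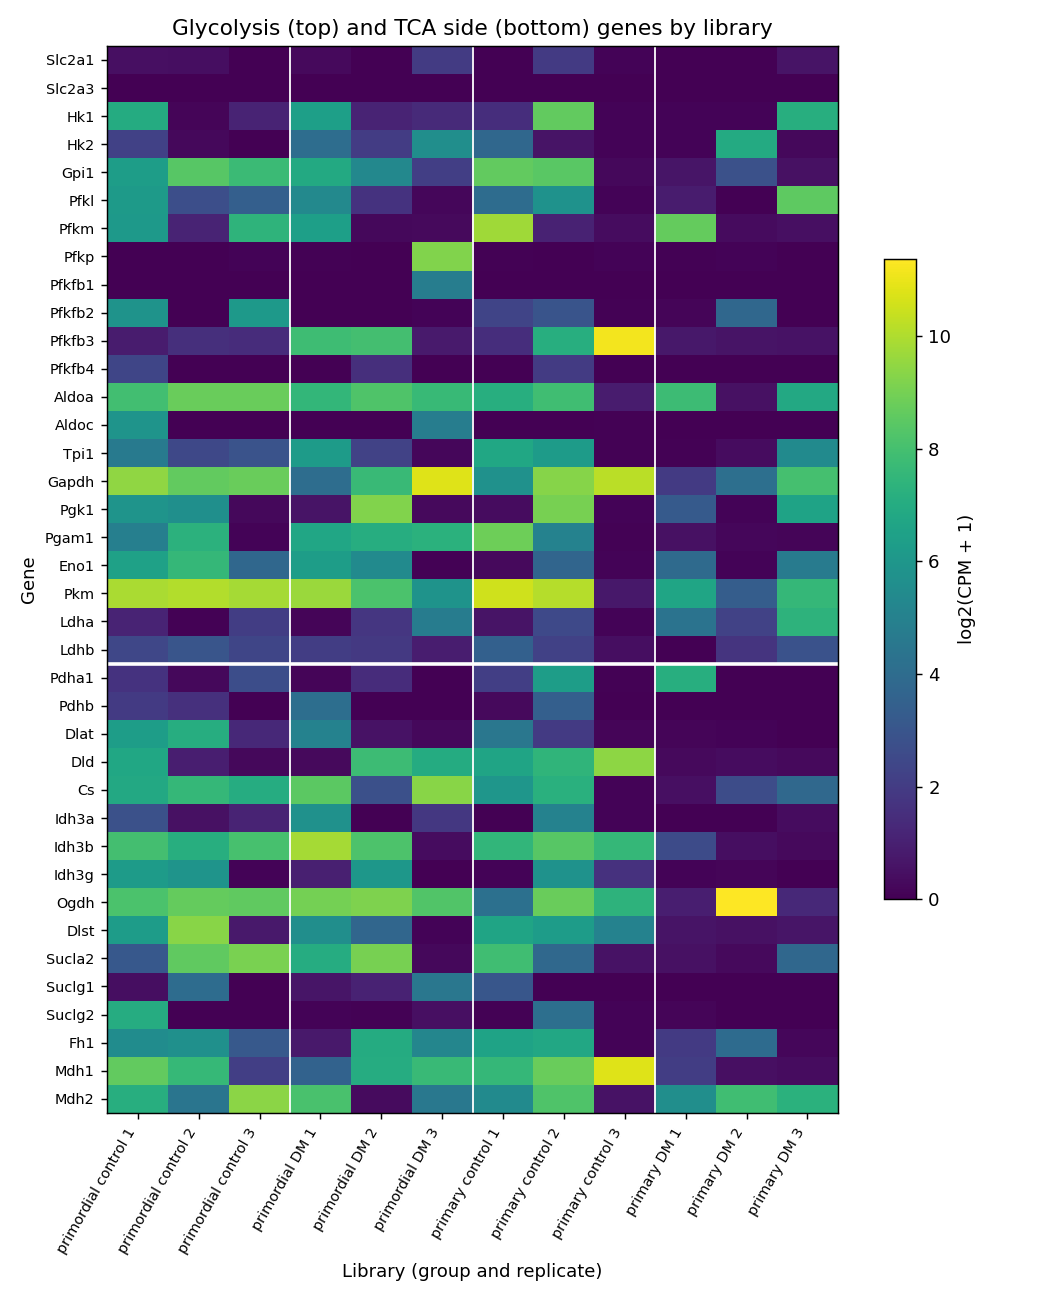
Levels of the 38 genes (rows, glycolysis above the white line and TCA side below) in each of the 12 libraries (columns, by group and replicate), as log2(CPM + 1). Of the 38 members, 33 reach 10 CPM in 1 library and are under 1 CPM in another of the same group, and the fewest members at 10 CPM or more are in primary control replicate 3 (7) and primary DM replicates 1 (7) and 2 (6).

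The summed level asks how much of each library went to these enzymes. The 22 glycolysis genes summed to 2608, 2635 and 2272 CPM in the 3 primordial control libraries, and to 1836, 1870 and 2925 CPM with DM. In primary follicles the sums were 3552, 3561 and 3485 CPM in control and 776, 176 and 1401 CPM with DM. The primary groups did not overlap, while the primordial groups did. The 16 TCA side genes summed to 1714, 2254 and 2007 CPM in primordial control and to 2352, 1942 and 1374 CPM with DM, and to 1046, 2221 and 2890 CPM in primary control and 200, 2895 and 184 CPM with DM. The primary DM replicate 2 value came largely from Ogdh, the first part of the 2-oxoglutarate dehydrogenase complex, which alone was 2637 CPM and 91.1% of the sum. The separation of the glycolysis sums rests on scaling by the library total. Scaled by TMM the sums in primary control were 2266, 1431 and 12730 and those with DM 1298, 683 and 3415, and the groups overlapped. Scaled by DESeq2's size factors they were 930, 673 and 46883 in control and 3095, 2441 and 10360 with DM. There the groups overlapped too, and the DM median was above the control median. The control sums also had different makers: Pkm led in replicates 1 and 2, while Pfkfb3 at 2299 CPM was 66.0% of the sum in replicate 3.

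**Figure D2:**
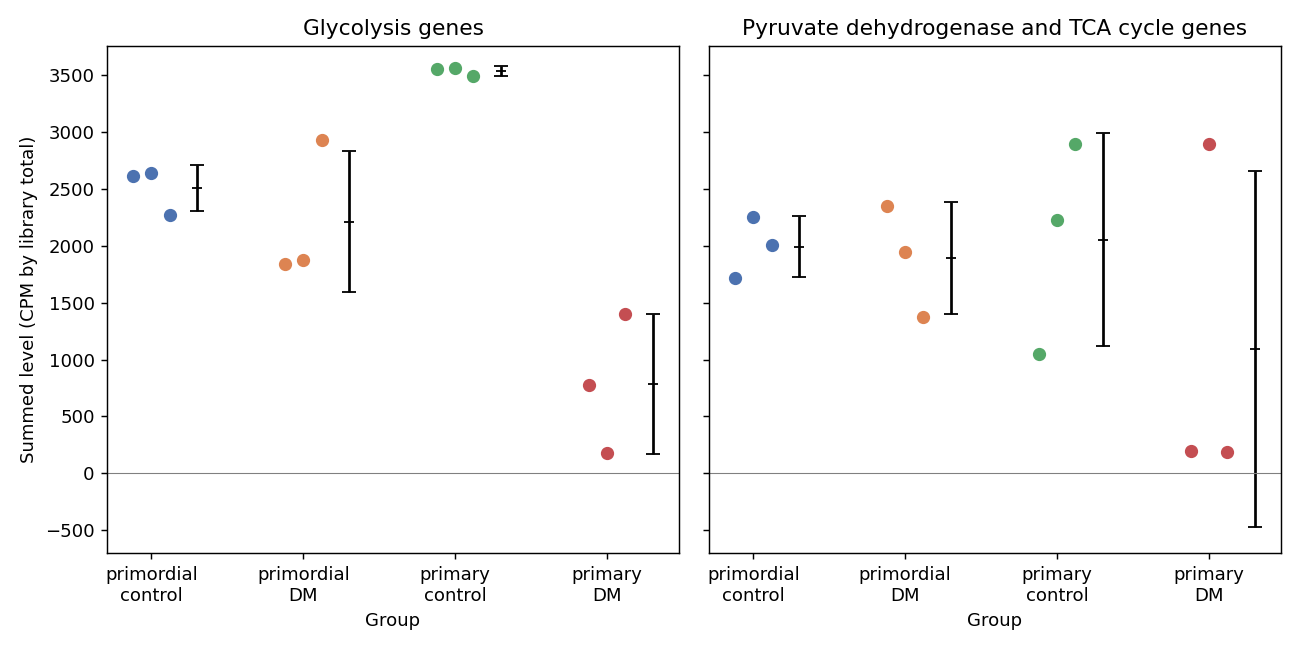
Summed CPM (by library total) of the glycolysis genes (left) and of the pyruvate dehydrogenase and TCA cycle genes (right) in each library, with the mean and SD of each group of 3 at its right. The primary control libraries sit between 3485 and 3561 CPM for glycolysis, and the primary DM libraries between 176 and 1401 CPM.

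The first comparison asks what DM did in primordial follicles. No member passed an adjusted p under 0.05 in edgeR's quasi-likelihood test among 31 tested, where 0.0149% of 6699 genes did, and none had an unadjusted p under 0.05, where 2.48% of genes were higher and 4.85% lower. DESeq2 called 3 of 28 members, Hk2, Pfkfb2 and Pfkfb3, where it called 11.1% of genes. The members' median log2 fold change was 0.80 over 16 glycolysis genes and 0.78 over 15 TCA side genes, beside 0.13 over all genes tested. By library size alone the glycolysis median was -0.11 and that of all genes -0.43. The sign of the glycolysis median thus depends on scaling. The glycolysis median was above that of all genes under both scalings, with 9 of the 16 genes above the median of all genes by TMM. It was below that of all genes without primordial control replicate 2 (0.08 beside 0.38) and without primordial control replicate 3 (0.18 beside 0.19). Without any other single library it stayed above.

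Scaled by the library total, Pkm and Ldhb were the members whose libraries did not overlap, both lower with DM, where 11.0% of genes tested were lower without overlap and 2.06% were higher. Pkm had 966, 1055 and 922 CPM in control and 801, 284 and 57.1 CPM with DM, and its log2 fold change was -1.02 (SE 1.64), which ran from -1.97 without primordial DM replicate 1 to -0.48 without primordial DM replicate 3. Ldhb, which favours the conversion of lactate to pyruvate, had 4.31, 7.04 and 4.23 CPM in control and 3.24, 2.67 and 0.855 CPM with DM, a log2 fold change of -0.84 (SE 2.52), which was -0.21 without primordial control replicate 2 and -0.47 without primordial DM replicate 3. Neither passed the test, and neither separation held under another scaling. By TMM, Pkm was 342, 757 and 542 in control and 546, 228 and 56.6 with DM, and Ldhb was 1.53, 5.05 and 2.49 in control and 2.21, 2.15 and 0.849 with DM. By TMM no member was lower without overlap, where 8.7% of genes were, and Hk2 and Ogdh were higher, where 4.0% were. By DESeq2's size factors none was lower, where 7.02% were, and Hk2 and Pfkfb3 were higher, where 4.91% were. Ldha, the form that favours lactate, had 1.16, 0.0539 and 3.17 CPM in control and 0.105, 2.46 and 26.1 CPM with DM, so its groups overlapped.

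Pfkfb3 had 0.819, 1.91 and 1.72 CPM in primordial control and 230, 253 and 0.760 CPM with DM, so that 2 of 3 DM libraries were high. By library total the third was below every control library. By TMM it was at 0.754, among control values of 0.290, 1.37 and 1.01. By DESeq2's size factors it was at 1.11, above the control values of 0.0772, 0.771 and 0.844. The log2 fold change of Pfkfb3 was 7.04 (SE 3.71), with an adjusted p of 0.658 by edgeR and 0.0122 by DESeq2. Pfkfb2, another of the PFKFB enzymes, had 56.1, 0 and 68.5 CPM in control and 0, 0 and 0.0950 CPM with DM. It was not tested by edgeR, and its 2 counts with DM against 3159 in control gave a ratio of 0.000605 with an exact 95% counting interval of 7.33e-05 to 0.00219, which covers counting error only and not the spread between libraries. Hk2, a hexokinase, had 3.59, 0.189 and 0 CPM in control and 15.9, 3.07 and 47.4 CPM with DM. Hk1, the other hexokinase of the list, had 125, 0.108 and 1.19 CPM in control and 83.5, 1.20 and 1.52 CPM with DM. Of the glucose transporters, Slc2a1 had 0.396, 0.324 and 0 CPM in control and 0.235, 0 and 2.95 CPM with DM, and Slc2a3 was at 0 in all 12 libraries.

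The second comparison asks the same of primary follicles. No member passed the adjusted test among 26, and 4 had an unadjusted p under 0.05, all lower with DM: Pfkfb3, Pgam1, Dld and Mdh1. Dld was tested only because its control libraries passed the filter, so its direction was fixed in advance. Of 4181 genes 0.0% passed the adjusted test, while 8.11% were lower and 4.04% higher by unadjusted p. DESeq2 called none of 17 members, where it called 14.1% of genes. The medians were 0.29 over 16 glycolysis genes and -1.79 over 10 TCA side genes, beside 0.31 over all genes. With DESeq2's size factors in edgeR the TCA side median was 0.86 and that of all genes 2.04, and by library size alone the glycolysis median was -1.40 and that of all genes -0.96.

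By library total, 5 of the members tested in primary follicles were lower with DM without overlap of the libraries, Pfkfb3, Dld, Dlst, Idh3b and Mdh1, and none was higher, where 11.8% of genes tested were lower and 1.27% higher. Dld, Dlst, Idh3b and Mdh1 were also separated by TMM and by DESeq2's size factors, where 9.4% and 5.74% of genes were lower without overlap, while Pfkfb3 was not. Ldha was higher without overlap by TMM, where 3.44% of genes were, and Ldha and Mdh2 by DESeq2's size factors, where 6.46% were. The oocyte and granulosa markers, at medians of 95.8 and 1049 CPM with DM and 616 and 5059 CPM in control, were lower in the same comparison by their medians, and their part in these values was not tested. Mdh1, the cytosolic malate dehydrogenase, had 190, 439 and 1805 CPM in control and 3.13, 0.375 and 0.314 CPM with DM. Its log2 fold change was -10.17 (SE 4.24, adjusted p = 0.395, edgeR), and without primary control replicate 3 it was -6.24. Dld, the dehydrogenase shared by the pyruvate and 2-oxoglutarate complexes, had 98.3, 173 and 698 CPM in control and 0.218, 0.281 and 0.228 CPM with DM. Its log2 fold change was -10.60 (SE 4.61, adjusted p = 0.395, edgeR), and without that library it was -6.84. Dld passed the filter of the test only through its control libraries. By library total it could therefore only be lower with DM without overlap.

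Pfkfb3 had 1.82, 137 and 2299 CPM in primary control and 0.654, 0.516 and 0.456 CPM with DM. All DM libraries were below all control libraries by library total, and the control libraries were far apart from each other. By TMM the control values were 1.16, 55.2 and 8396 and those with DM 1.09, 2.01 and 1.11, so the groups overlapped. Its log2 fold change of -11.20 (SE 4.32, adjusted p = 0.395, edgeR) was -4.73 without primary control replicate 3. Idh3b, a subunit of the isocitrate dehydrogenase of the cycle, had 176, 335 and 188 CPM in control and 4.98, 0.352 and 0.228 CPM with DM, a log2 fold change of -6.90 (SE 4.02), and -5.51 without primary control replicate 3. Dlst, the acyltransferase of the 2-oxoglutarate complex, had 99.8, 76.7 and 32.2 CPM in control and 0.509, 0.446 and 0.570 CPM with DM, a log2 fold change of -6.00 (SE 3.50), and -5.29 without that library.

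Dlat, the acetyltransferase of the pyruvate dehydrogenase complex, had 21.8, 2.78 and 0.129 CPM in control and 0.109, 0.0704 and 0 CPM with DM. It did not overlap either by library total or TMM, but by DESeq2's size factors it did. By count, the lowest control library held 4 counts and the highest DM library 3, and it did not pass the filter of the test. Pgam1, the phosphoglycerate mutase, had 469, 31.5 and 0.0321 CPM in control and 0.436, 0.141 and 0.114 CPM with DM. Its control libraries thus spanned the DM range, and its log2 fold change was -7.87 (SE 3.86, adjusted p = 0.396, edgeR), and -4.24 without primary control replicate 1.

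**Figure D3:**
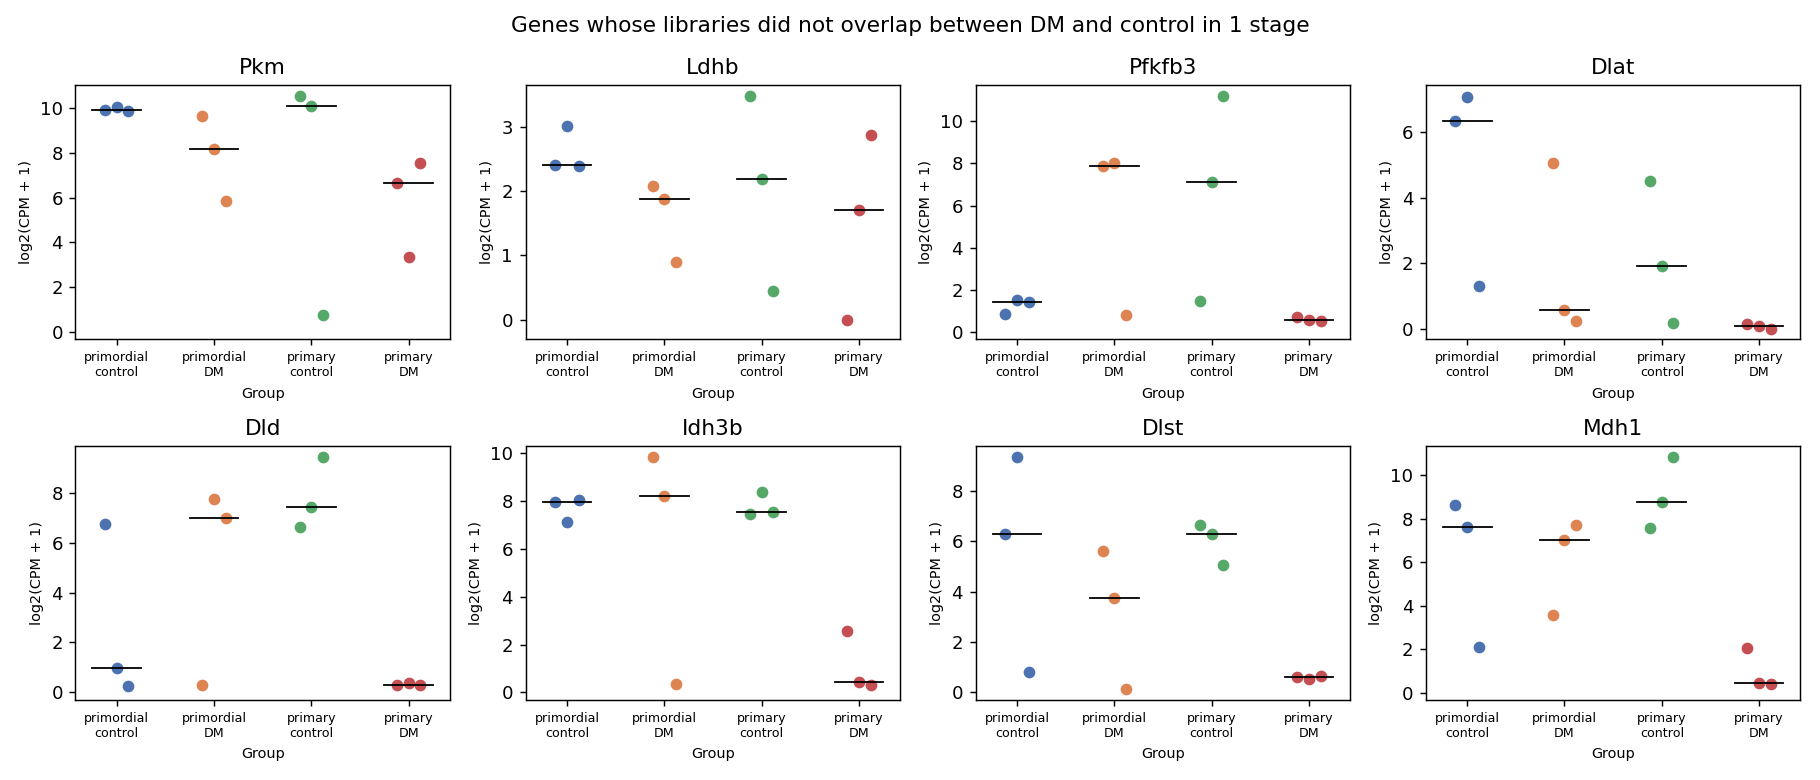
Levels, as log2(CPM + 1), of the 8 genes whose libraries, scaled by library total, did not overlap between DM and control in at least 1 stage. Points are libraries and bars are group medians. Hk2, Ogdh, Ldha and Mdh2, which were higher with DM without overlap only under another scaling, are not drawn. Scaled by library total, Pkm and Ldhb are lower in every primordial DM library and the other 6 in every primary DM library; by TMM Pkm, Ldhb and Pfkfb3 overlap, and by DESeq2's size factors Dlat does too.

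Other members went in either direction in primary follicles without passing the test. Pkm had 1486, 1087 and 0.675 CPM in control and 101, 9.15 and 187 CPM with DM, Gapdh had 52.9, 628 and 1184 CPM in control and 2.87, 16.9 and 254 CPM with DM, and Aldoa had 141, 233 and 0.836 CPM in control and 219, 0.446 and 116 CPM with DM. These groups overlapped. Ldha had 0.499, 4.63 and 0.0643 CPM in control and 18.8, 3.80 and 159 CPM with DM, and Ldhb had 10.2, 3.56 and 0.354 CPM in control and 0, 2.27 and 6.30 CPM with DM. Hk1 had 1.76, 394 and 0.0964 CPM in control and 0.0727, 0.0704 and 137 CPM with DM, Hk2 had 13.1, 0.499 and 0.0964 CPM in control and 0.0727, 123 and 0.200 CPM with DM, and Slc2a1 had 0, 2.85 and 0.0964 CPM in control and 0, 0 and 0.513 CPM with DM. Single libraries carried most of the level of each of these hexokinases.

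**Figure D4:**
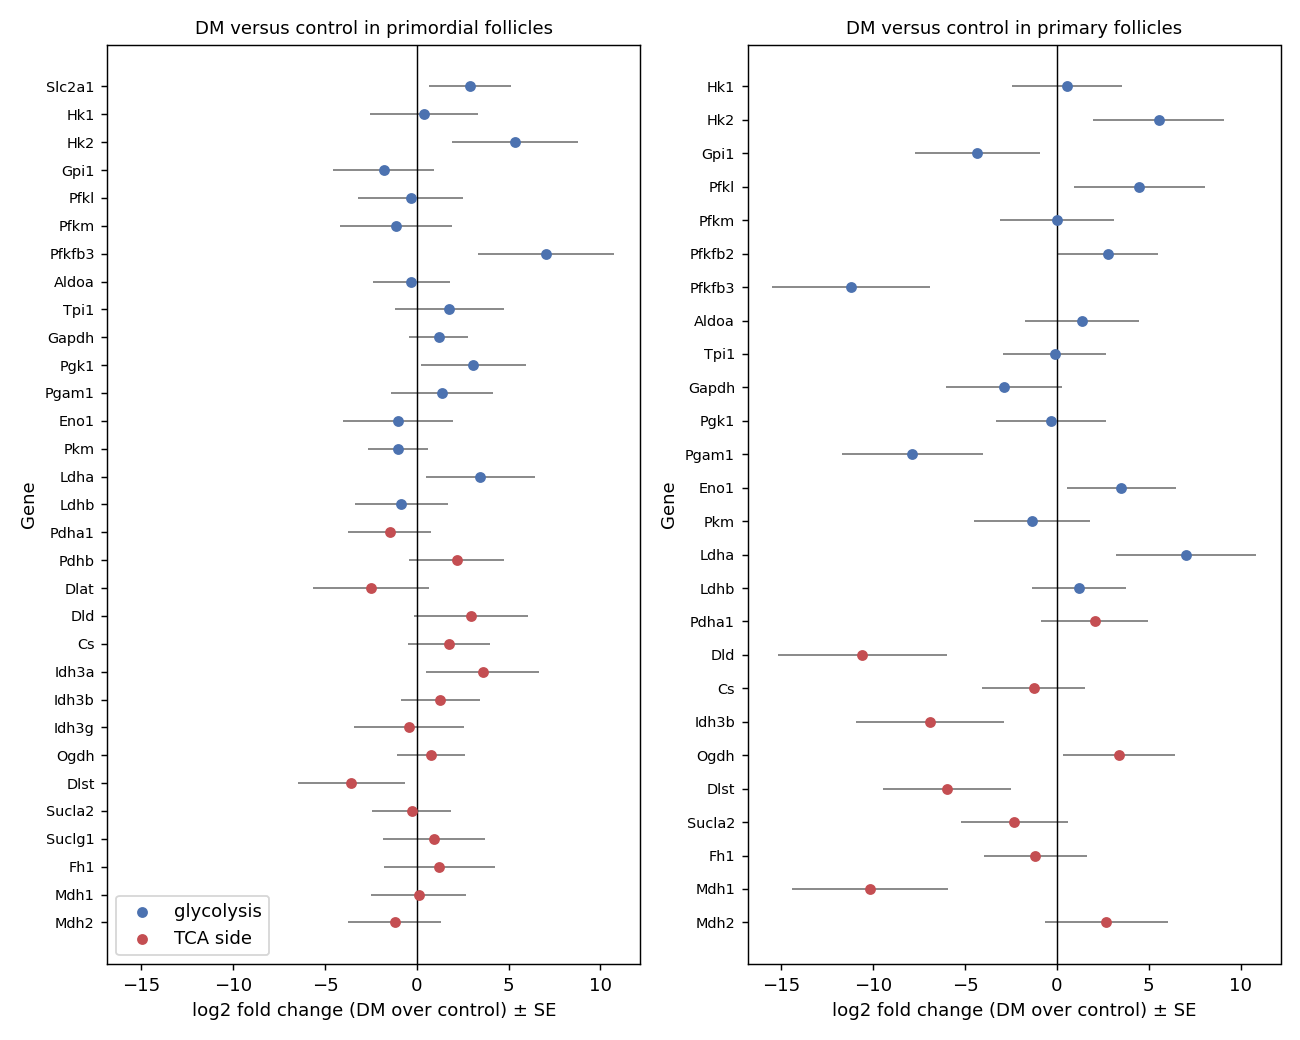
Log2 fold change (DM over control) with its standard error for each member tested by edgeR in primordial (left, 31 genes) and primary follicles (right, 26 genes). Pfkfb3 is at 7.04 in primordial and -11.20 in primary follicles, and no member passed the adjusted threshold in either.

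Gpi1, the isomerase after hexokinase, had 79.6, 336 and 211 CPM in primordial control, 120, 39.1 and 3.37 CPM in primordial DM, 392, 356 and 0.193 CPM in primary control and 0.545, 5.96 and 0.428 CPM in primary DM. Pgam1 had 29.2, 158 and 0.0661 CPM in primordial control and 106, 136 and 154 CPM with DM. Ogdh had 282, 409 and 387 CPM in primordial control, 504, 569 and 308 CPM in primordial DM, 17.1, 431 and 163 CPM in primary control and 0.909, 2637 and 1.45 CPM in primary DM. Cs, the citrate synthase, had 114, 188 and 132 CPM in primordial control, 363, 5.93 and 649 CPM in primordial DM, 62.3, 146 and 0.0964 CPM in primary control and 0.4, 5.30 and 13.3 CPM in primary DM. Mdh2, the mitochondrial malate dehydrogenase, had 140, 20.4 and 668 CPM in primordial control, 275, 0.258 and 22.4 CPM in primordial DM, 41.7, 299 and 0.450 CPM in primary control and 47.4, 236 and 154 CPM in primary DM. Ogdh was well above 0 in every primordial library, while Gpi1, Cs and Mdh2 each had at least 1 primordial DM library far below the others.

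Gapdh had 721, 393 and 430 CPM in primordial control and 15.9, 204 and 1791 CPM with DM, and Aldoa had 245, 432 and 436 CPM in control and 182, 297 and 198 CPM with DM. Pfkl, the liver-type phosphofructokinase, had 73.1, 5.72 and 9.85 CPM in primordial control, 39.6, 2.18 and 0.143 CPM in primordial DM, 15.3, 54.3 and 0.0643 CPM in primary control and 0.836, 0.0235 and 377 CPM in primary DM. Tpi1, the triose phosphate isomerase, had 23.9, 4.5 and 6.42 CPM in primordial control, 74.0, 3.78 and 0.143 CPM in primordial DM, 108, 74.2 and 0.0321 CPM in primary control and 0.0364, 0.281 and 42.6 CPM in primary DM.

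Pgk1, the phosphoglycerate kinase, had 58.5, 49.8 and 0.198 CPM in primordial control, 0.497, 597 and 0.238 CPM in primordial DM, 0.293, 531 and 0.0643 CPM in primary control and 8.36, 0.0938 and 94.3 CPM in primary DM. Eno1, an enolase, had 89.9, 190 and 13.0 CPM in primordial control, 79.3, 42.2 and 0.0475 CPM in primordial DM, 0.205, 12 and 0.0643 CPM in primary control and 14.1, 0.0938 and 25.5 CPM in primary DM. Fh1, the fumarase, had 45.7, 50.9 and 8.07 CPM in primordial control, 0.732, 128 and 35.6 CPM in primordial DM, 95.1, 113 and 0.0643 CPM in primary control and 2.84, 14.6 and 0.143 CPM in primary DM. The DM and control libraries of these 3 genes overlapped in both stages.

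In primordial follicles the libraries of Mdh1, Dld, Idh3b, Dlst and Dlat overlapped between DM and control. Mdh1 had 393, 196 and 3.31 CPM in control and 10.9, 129 and 205 CPM with DM, and Dld had 107, 0.944 and 0.198 CPM in control and 0.235, 218 and 128 CPM with DM. Idh3b had 251, 141 and 262 CPM in control and 916, 294 and 0.285 CPM with DM, Dlst had 77.0, 655 and 0.728 CPM in control and 47.8, 12.5 and 0.0950 CPM with DM, and Dlat had 79.2, 134 and 1.46 CPM in control and 32.0, 0.487 and 0.190 CPM with DM. The log2 fold changes were 0.11 (SE 2.60) for Mdh1, 2.95 (SE 3.10) for Dld, 1.29 (SE 2.14) for Idh3b and -3.56 (SE 2.92) for Dlst. These values moved when 1 library was left out. Dld was 7.92 without primordial control replicate 1 and 2.05 without primordial DM replicate 2, Idh3b was 0.06 without primordial DM replicate 1 and 1.93 without primordial DM replicate 3, Dlst was 0.10 without primordial control replicate 2, and Mdh1 was 0.61 without primordial DM replicate 1 and -0.85 without primordial DM replicate 3.

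The stages were compared in control and with DM. In control, 0 of 32 members passed the adjusted test, where 0.0% of 6726 genes did; 2 members, Pfkfb3 and Dld, had an unadjusted p under 0.05 and were higher in primary follicles, where 2.99% of genes were higher and 3.45% lower. DESeq2 called none of 21 members, where it called 5.29% of genes. Pfkfb3 was higher by 11.28 on the log2 scale (SE 3.16, adjusted p = 0.205, edgeR), and Dld by 5.61 (SE 2.66). Without primary control replicate 3 these were 5.14 and 2.34, and without primordial control replicate 1 the value of Dld was 11.59. With DM, 0 of 25 members passed, where 0.0% of 4331 genes did, and 2, Pgam1 and Suclg1, were lower in primary follicles by unadjusted p, where 11.7% of genes were lower and 5.54% higher. DESeq2 called Pgam1 and Dld of 18 members, where it called 20.1% of genes. Suclg1, a subunit of succinyl-CoA ligase, had 0.576, 1.15 and 21.7 CPM in primordial DM and 0, 0 and 0.0285 CPM in primary DM, and in control it had 0.343, 15.3 and 0 CPM in primordial and 7.19, 0 and 0 CPM in primary follicles. Its single count in primary DM gave a ratio of 0.00172 with an exact 95% counting interval of 4.36e-05 to 0.00965. Most of its primordial DM level was in replicate 3, at 21.7 CPM. Suclg1 passed the filter of the test only through its primordial DM libraries, so it could only come out lower in primary follicles.

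The interaction asks whether DM acted differently in the 2 stages. No member of 34 passed the adjusted test, where 0.0% of 8500 genes did. By unadjusted p, Pfkfb2 was higher, where 9.11% of genes were, and Pfkfb3, Pgam1, Dld and Mdh1 were lower, where 9.78% of genes were. Pfkfb3 had the lowest adjusted p of the members at 0.0974 (log2 difference -18.04, SE 4.56, edgeR), and without primary control replicate 3 its log2 difference was -11.51. Pfkfb2 had 4.05, 6.77 and 0.0321 CPM in primary control and 0.109, 12.7 and 0 CPM in primary DM. DESeq2 called Pfkfb2 of 20 members, where it called 11.0% of genes. The interaction uses the same libraries as the comparisons within each stage.

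Of the 11 members not given by library, Pfkm, Sucla2, Idh3a, Idh3g and Pdha1 passed 3 counts in 7 to 12 libraries. Pfkp, at 586 CPM in primordial DM replicate 3, had at most 0.0964 CPM elsewhere, and Pfkfb1 in the same library had 27.5 CPM. Pfkfb4, Aldoc, Pdhb and Suclg2 passed 3 counts in 2 to 5 libraries. Of 57 other genes of these pathways, transport and regulation, listed with earlier results of these data known, 18 never passed 3 counts. For DM 26 were tested in primordial and 11 in primary follicles, for stage 23 in control and 15 with DM, and 27 in the interaction. Of those tested 0 passed the adjusted test, where 0.0149% of all genes did for DM in primordial follicles and 0.0% in the other comparisons. The 3 most abundant of the 57 were Hif1a, Idh1 and Idh2, at medians of 277, 153 and 107 CPM over the 12 libraries. By unadjusted p under 0.01, 1 of 15 tested was lower in primary than in primordial follicles with DM (Bsg), where 0.739% of genes were lower and 1.13% higher. Bsg had 2.72, 4.44 and 1.14 CPM in primordial DM and 0, 0 and 0 CPM in primary DM. It passed the filter only through the primordial DM libraries, so it could only come out lower. In the interaction, of 27 tested Pgm1 was higher and Pdp1 lower, where 3.38% of genes were higher and 2.67% lower. Single libraries stood out for both. Pgm1 had 0, 0.0235 and 64.6 CPM in primary DM, and Pdp1 had 0.264, 237 and 1490 CPM in primary control.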

How the data were processed

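The authors counted reads per gene with featureCounts on mm10 after trimming with Trim Galore, and deposited raw counts without normalization. The paper names TopHat2 as the aligner, while the submitters' processing notes name STAR. The methods name Ovation PICO amplification with TruSeq RNA Access libraries, and Smart-seq II for collected oocytes. Whether strand was used in counting is not given in the sources used here. All columns were mapped to a sample (0 unmapped). CPM are counts divided by the library total. edgeR 4.0.16 (filterByExpr, TMM, glmQLFit with a prior count of 0.125, glmQLFTest, Benjamini-Hochberg) was the main test, with DESeq2 1.42.0 in default settings as an alternative. SE is the log2 fold change divided by the square root of the test's F statistic. A count of 0 allows up to 3 counts, and limits and intervals cover counting error only. Where nothing in the labels says that libraries came from separate animals, p-values measure the spread between these libraries. The paper's figure legends call the pooled samples of each group biologically independent. The test was run on simulated counts: with a dispersion of 0.05, 100% of 200 genes changed by 3 on the log2 scale were recovered in both DM comparisons, and with the libraries' own dispersion 0% were. The changed genes were drawn only from those with an expected mean above 100 counts, a level that not all members reached. Values per library are given for the 10 glycolysis and 7 TCA side members with the highest median CPM, members with an unadjusted p under 0.05 in any comparison or libraries without overlap between DM and control, and the pairs Slc2a1 and Slc2a3, Hk1 and Hk2, Ldha and Ldhb. The members and lists were chosen with earlier results of these data known.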

Additional observations from a re-analysis of the deposited data

How the results depend on the processing

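The member counts by edgeR stayed at 0 under every scaling, without the filter, with all 12 libraries in 1 fit, with the replicate block and without any 1 library. By DESeq2 in default settings the members called were 3 for DM in primordial follicles, 0 for DM in primary follicles, 0 for stage in control, 2 for stage with DM and 1 for the interaction. With DESeq2's filtering set for a threshold of 0.05, an alternative added after seeing the data, they were 3, 3, 0, 2 and 1, so the calls in primary follicles (Eno1, Mdh2 and Dlst) came from that filtering alone (adjusted p from 0.0504 to 0.0586 by DESeq2 in default settings); the Pkm fold for DM in primary follicles was 1.11 there. By unadjusted p they were 0, 4, 2, 2 and 5. With levels scaled by TMM or DESeq2's size factors, chosen after seeing the data, members lower without overlap went from 2 to 0 and 0 in primordial and from 5 to 4 and 4 in primary follicles, and those higher from 0 to 2 and 2 and from 0 to 1 and 2. The share of all genes tested that was lower fell from 11.0% to 8.7% and 7.02%, and from 11.8% to 9.4% and 5.74%. The share higher rose from 2.06% to 4.0% and 4.91%, and from 1.27% to 3.44% and 6.46%. Genes called by edgeR were 1 for DM in primordial follicles (0 with DESeq2 size factors, library size alone, no filter, the replicate block or all 12 libraries, and 0 to 3 without 1 library), and 0 in the other comparisons except 1 for stage in control by library size alone and 0 to 4 for stage with DM without 1 library; DESeq2 called 665, 594, 280, 932 and 587 genes, and with the other filtering 701, 725, 293, 992 and 597. By unadjusted p 491, 508, 433, 746 and 1605 genes passed. The cause of these differences was not tested.
The sign changed with library size alone in edgeR to -0.58 for Hk1 (DM in primordial follicles), -0.80 for Mdh1 (DM in primordial follicles), -1.68 for Hk1 (DM in primary follicles), -0.83 for Ldhb (DM in primary follicles), -0.11 for glycolysis members (DM in primordial follicles), -1.40 for glycolysis members (DM in primary follicles), -0.83 for TCA side members (stage in control), -1.05 for glycolysis members (stage with DM), -1.37 for glycolysis members (the interaction). The sign changed with the replicate block to -0.17 for Mdh1 (DM in primordial follicles), -3.36 for Hk1 (DM in primary follicles), -1.94 for Pfkfb2 (DM in primary follicles), -0.29 for glycolysis members (DM in primordial follicles), -1.90 for glycolysis members (DM in primary follicles), -0.44 for glycolysis members (stage in control), -0.73 for TCA side members (stage in control), -1.51 for glycolysis members (stage with DM). The sign changed with DESeq2 size factors in edgeR to 1.19 for Pkm (DM in primary follicles), 0.86 for TCA side members (DM in primary follicles). The sign changed with DESeq2 to 1.11 for Pkm (DM in primary follicles). The sign changed with no filter to -0.26 for TCA side members (stage in control), -0.45 for glycolysis members (stage with DM), -1.78 for glycolysis members (the interaction). The sign changed with all 12 libraries in 1 fit to -0.44 for TCA side members (stage in control). The medians of all genes moved too. By library size alone they were -0.43 and -0.96 for DM in primordial and primary follicles. They were -0.50 for stage in control, -0.96 for stage with DM and -1.25 for the interaction. With the replicate block they were -0.58 and -1.09 for DM in primordial and primary follicles, -0.89 for stage in control and -1.04 for stage with DM. Leaving out 1 library at a time, the ranges of the log2 values that changed sign were -0.64 to 3.65 for Slc2a1 (DM in primordial follicles), -3.65 to 5.62 for Hk1 (DM in primordial follicles), -5.05 to 0.10 for Dlst (DM in primordial follicles), -2.49 to 6.74 for Suclg1 (DM in primordial follicles), -0.85 to 0.61 for Mdh1 (DM in primordial follicles), -8.49 to 7.14 for Hk1 (DM in primary follicles), -3.21 to 8.63 for Hk2 (DM in primary follicles), -4.52 to 3.54 for Pfkfb2 (DM in primary follicles), -0.07 to 1.05 for glycolysis members (DM in primordial follicles), -0.11 to 0.84 for TCA side members (DM in primordial follicles), -3.02 to 1.48 for glycolysis members (DM in primary follicles), -0.39 to 1.16 for glycolysis members (stage in control), -0.69 to 1.5 for TCA side members (stage in control), -1.99 to 0.56 for glycolysis members (stage with DM), -3.85 to 0.82 for glycolysis members (the interaction). The replicate numbers did not pair the libraries: the correlations of deviations of same-numbered libraries ran from -0.047 to 0.049. With the replicate block no comparison had a called gene or member. The depth limits what a count of 0 shows, to between 0.0704 and 0.214 CPM per library.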
